A study of Mus musculus with 4 samples.

Results

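The 448 long non-coding RNAs described here were chosen by annotation and level: they are the rows of a mouse gene count table whose biotype is a long non-coding class and whose mean level over the 4 samples was at least 2 CPM (the count divided by the sample's total, on the usual CPM scale). They are 448 of 54532 rows. Of the 8898 rows of these biotypes, 5658 had 0 counts in all 4 samples. The 448 comprise 209 lincRNA, 191 antisense, 23 sense_intronic, 22 bidirectional_promoter_lncRNA and 3 sense_overlapping genes, and all of them passed the filter on low counts. The table comes from naive splenic CD8+ T cells of C57BL/6 mice, isolated on magnetic beads and cultured for 48 h on anti-CD3 and anti-CD28, with 2 samples also given IFNα at 2000 U/ml and 2 control samples without it. The study asked how IFNα acts directly on activated CD8+ T cells. Neither the labels nor the methods say whether the samples came from separate animals or cultures, so the p-values reflect sample-to-sample spread alone, and that spread may be technical.

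The total count was 16096121 and 17676062 in the IFNα samples, against 17375960 and 16955366 in the controls. CD8 T cell markers summed to 3459 and 3524 CPM in the IFNα samples, against 3880 and 3454 CPM in the controls, so the cells carried the labelled identity. The B cell list summed to 13.3 and 13.0 CPM in IFNα samples, against 20.2 and 19.4 CPM in controls, with Cd79b at 7.95 and 7.41 CPM, against 16.1 and 12.8 CPM. Of its genes 3 of 7 passed the filter and 0 were called, and Ms4a1 was at or near 0 CPM in all 4 samples. The other tested genes, Cd79a and Cd22, did not fall with Cd79b. Cd79a had 4.66 and 4.24 CPM with IFNα, against 3.40 and 5.54 CPM without (log2 fold change 0.05), and Cd22 had a log2 fold change of 0.47. The NK cell list summed to 253 and 243 CPM in IFNα samples, against 83.2 and 87.8 CPM in controls, nearly all of it Eomes, a factor that CD8+ T cells also make. The myeloid list summed to 12.3 and 15.1 CPM in IFNα samples, against 27.6 and 25.7 CPM in controls, and 1 of its 4 tested genes, Lyz2, was called lower. The part of other cells in the values below was not tested, and in bulk RNA fewer cells of a type and less RNA per cell cannot be told apart.

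Long non-coding RNAs are transcripts without a long protein-coding frame. Many start beside, within or opposite a protein-coding gene, and some, such as Malat1 and Neat1, stay in the nucleus and take part in its speckles and paraspeckles. Type I interferon signals through JAK kinases to a transcription factor complex that binds the interferon-stimulated response element (ISRE) in the promoters of antiviral genes. In these samples that coding response was present: of 30 listed interferon-stimulated coding genes, 28 were called higher and 0 lower, with a median log2 fold change of 4.15.

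Most of the long non-coding RNAs were scarce, with a median mean level of 4.65 CPM. Between 2 and 5 CPM lay 235 of them, 114 between 5 and 10, 51 between 10 and 20, 30 between 20 and 50, 6 between 50 and 100, and 12 at 100 CPM or more. Together they held 0.922% and 0.863% of counts in the IFNα samples, against 0.689% and 0.933% in the controls. Malat1 alone, the nuclear speckle RNA, had 3154 and 2787 CPM in IFNα samples, against 1307 and 2918 CPM in controls, with the first control far below the other 3 samples. Without Malat1 the share was 0.606% and 0.584% with IFNα, against 0.558% and 0.642% without.

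After Malat1 (2542 CPM on average), the most abundant were Gm42047 (485 CPM), Neat1 (414 CPM), the scaffold of paraspeckles, and AW112010 (284 CPM), a transcript known in mouse from inflamed immune cells. AI504432 (204 CPM), Gm26917 (192 CPM), 1700020I14Rik (192 CPM), AU020206 (187 CPM), 2900097C17Rik (182 CPM) and Gm47015 (146 CPM) followed. 2900097C17Rik is the mouse form of Norad, known in human cells for binding Pumilio proteins. Per kilobase of gene length, AW112010 stood first with 369 CPM per kb, ahead of Malat1 with 364, Mir142hg with 229 and Gm44174 with 131. Gm44174, named after its level was seen, lies 143 bases from Cd8a on the same strand. By the test given next, none of these RNAs was called.

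Differences were tested with edgeR's quasi-likelihood test over 14417 genes, p-values were adjusted over all of them by Benjamini-Hochberg, and calls required an adjusted p below 0.05 together with a log2 fold change beyond 1 in either direction. IFNα raised 4 of the 448 (0.893%), where 1.28% of all tested genes were called higher. It lowered 0 of them, where 0.139% of all tested genes were called lower. At an unadjusted p under 0.05 there were 25 higher (5.58%, against 5.72% of all tested genes) and 35 lower (7.81%, against 5.55%). By DESeq2 7 were called higher (1.56%, against 1.79%) and 3 lower (0.670%, against 0.269%), and by limma-voom 3 higher (0.670%, against 1.31%) and 0 lower (against 0.132%). Without the fold threshold the counts were 4 higher, beside 1.43% of all tested genes, and 1 lower, Gm45552, beside 0.222%. The median log2 fold change was 0.04 over the 448 and -0.01 over all tested genes. Both IFNα samples lay above both controls in 75 of the 448 (16.7%), against 16.2% of all tested genes, and below both in 111 (24.8%), against 30.8%. Since the level over all samples chose the members, 18 passed only through the IFNα mean, 1 of which was called. That 1 is 4930512H18Rik, so its call is not independent of how it was chosen. Another 25 passed only through the control mean, none of which was called.

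**Figure D1:**
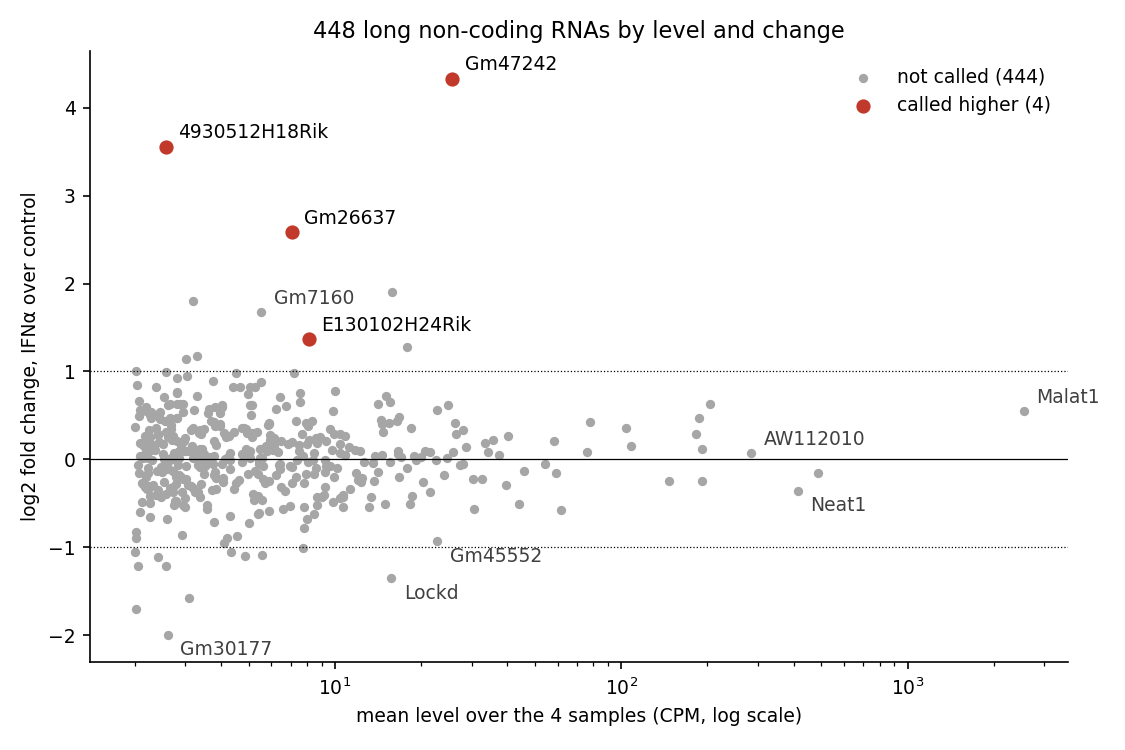
Each point is 1 of the 448 long non-coding RNAs, with its mean level over the 4 samples in CPM on a log axis and its log2 fold change of IFNα over control. The 4 called higher (red) stand at log2 fold changes of 1.37 to 4.33, and the abundant RNAs on the right, such as Malat1 and Neat1, lie within 1 log2 unit of no change (dotted lines).

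The most raised of them, Gm47242, is a lincRNA of 2 exons on chromosome 19 (GRCm38, chr19:12539588-12540823, minus strand). It had 791 and 859 counts in the IFNα samples (49.1 and 48.6 CPM), against 18 and 68 in the controls (1.04 and 4.01 CPM). The groups did not overlap, and the controls differed from each other far more than the treated samples did. The log2 fold change was 4.33 (SE 0.48, adjusted p 0.0136), and per kilobase its mean level was 103 CPM per kb with IFNα and 5.31 CPM per kb without. Its mean over all samples, 54.1 CPM per kb, stood at rank 9 of the 448. Without a filter on low counts the adjusted p was 0.0825. None of its exon bases is shared with another annotated gene.

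Its nearest coding gene, Fam111a, which encodes a nuclear protease, begins 4917 bases away on the opposite strand and was not called (log2 fold change 0.45, SE 0.12, adjusted p 0.23). Other rows of the same stretch were raised. A330040F15Rik, a processed transcript whose span holds Gm47242 on the same strand, had 154 and 165 counts with IFNα and 19 and 22 without (log2 fold change 3.02, adjusted p 0.00334). The processed pseudogene Gm6545, 9048 bases beyond Gm47242 on its strand, had 3855 and 4408 counts with IFNα and 37 and 208 without (log2 fold change 5.15, adjusted p 0.0296). A pseudogene may share reads with its parent gene, so that value is uncertain. Further off, 74304 bases away, Mpeg1, the gene of the pore-forming protein perforin-2, had 34.2 and 36.1 CPM with IFNα and 2.19 and 1.95 CPM without. The rows other than Fam111a were named after their values were seen.

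4930512H18Rik is annotated antisense to Palld (chr8:61849006-61922834, plus strand) and stood at rank 371 of the 448 by mean level. It had 68 and 92 counts in the IFNα samples (4.22 and 5.20 CPM), against 8 and 6 in the controls (0.46 and 0.35 CPM). Its control mean is under 2 CPM, so it is a member only through its IFNα level, the group in which it was called higher. The log2 fold change was 3.56 (SE 0.36, adjusted p 0.00966). Palld, which encodes the actin-bundling protein palladin, was barely detected, at 11 and 8 counts with IFNα and 18 and 13 without. No change of it was detected (log2 fold change -0.62, adjusted p 0.65). The span of 4930512H18Rik runs out across the start of Palld, a minus strand gene, and the counts do not show which part of it held the reads. Downstream, 5253 bases beyond the end of 4930512H18Rik, lies Ddx60, a helicase gene of the antiviral response, with 3025 and 3233 counts in IFNα samples and 196 and 326 in controls (log2 fold change 3.66, adjusted p 0.00234).

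Towards 4930512H18Rik, and over its end, runs Gm45418, a bidirectional_promoter_lncRNA that starts 59 bases from Ddx60 on the other strand and fell short of 2 CPM. Its counts were 49 and 73 with IFNα and 1 and 2 without, a ratio of 41.3 in CPM (95% exact counting interval 13.8 to 203). It shares 50.1% of its exon bases with 4930512H18Rik, and 20.2% of the exon bases of 4930512H18Rik are shared. The library kit does not mark strand, so reads over the shared bases cannot be told apart. Ddx60 and Gm45418 were named after their values were seen.

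The stretch of 300 bases around the Ddx60 start, which also holds the annotated start of Gm45418, is printed because it carries ISRE cores, matches to 2 GAAA boxes with 2 bases between, in capitals. With it stands the only RefSeq start window of 4930512H18Rik that holds a gamma-activated site (GAS) core, TTC and GAA with 3 bases between, also in capitals. Both are from RefSeq, build GRCm38.p6, from 250 bases before to 50 after the start, on the gene's strand.
Ddx60, chr8:61927837-61928136, plus strand: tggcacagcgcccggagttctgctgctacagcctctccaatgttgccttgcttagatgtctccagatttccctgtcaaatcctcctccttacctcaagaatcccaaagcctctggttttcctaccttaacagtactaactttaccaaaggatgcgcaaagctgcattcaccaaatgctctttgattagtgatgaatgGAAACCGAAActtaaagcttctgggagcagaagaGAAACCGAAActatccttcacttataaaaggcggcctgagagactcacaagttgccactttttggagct
4930512H18Rik, chr8:61919397-61919696, plus strand: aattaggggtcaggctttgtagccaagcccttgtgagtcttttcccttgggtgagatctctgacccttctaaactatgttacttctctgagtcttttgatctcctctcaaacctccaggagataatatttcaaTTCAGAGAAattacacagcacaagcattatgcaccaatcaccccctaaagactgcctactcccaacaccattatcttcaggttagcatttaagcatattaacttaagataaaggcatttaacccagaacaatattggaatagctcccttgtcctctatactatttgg
In the Ddx60 window the 2 ISRE cores begin 53 and 19 bases before the start. The 3 windows of 4930512H18Rik held 0 ISRE cores, and the GAS core begins 117 bases before the start. All 3 lie inside the counted span, in the part beyond the start of Palld, so the start of the span in the count table was not searched.

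Gm26637 is a lincRNA of 3 exons (chr17:78882042-78892500, plus strand) that begins within the first 532 bases of Eif2ak2 and runs out across its start. It had 202 and 205 counts in the IFNα samples (12.5 and 11.6 CPM), against 37 and 34 in the controls (2.13 and 2.01 CPM). Here the samples of each group were close, and the log2 fold change was 2.59 (SE 0.20, adjusted p 0.00343). Eif2ak2, the gene of the double-stranded RNA kinase PKR, overlaps it by 532 bases on the opposite strand. It had 4142 and 4502 counts with IFNα and 466 and 720 without (log2 fold change 2.94, SE 0.22, adjusted p 0.00337).

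By the longer overlap, 8563 bases, the nearest coding gene of Gm26637 is Sult6b1, a sulfotransferase gene on the opposite strand, with 6.09 and 7.18 CPM in IFNα samples and 0.52 and 1.24 CPM in controls (log2 fold change 2.97, SE 0.40, adjusted p 0.0306). Of the exon bases of Gm26637, 11.4% are shared with Eif2ak2 or Sult6b1, and reads there cannot be assigned to a strand. The share of its counts that fall on those bases is not given by the table. Gm26637 was the only one of the 4 called whose nearest coding gene was called the same way. Eif2ak2 was named after its values were seen.

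The window of Eif2ak2 is printed for its ISRE core and GAS core, in capitals, and that of Gm26637, which starts on the other strand within the same kilobase, because it holds neither.
Eif2ak2, chr17:78882523-78882822, minus strand: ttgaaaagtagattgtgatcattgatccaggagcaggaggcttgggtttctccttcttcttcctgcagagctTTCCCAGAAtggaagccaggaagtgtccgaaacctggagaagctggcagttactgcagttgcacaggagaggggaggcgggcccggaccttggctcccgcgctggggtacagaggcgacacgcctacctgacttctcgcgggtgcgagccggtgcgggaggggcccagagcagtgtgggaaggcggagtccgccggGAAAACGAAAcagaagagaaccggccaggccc
Gm26637, chr17:78881634-78881933, plus strand: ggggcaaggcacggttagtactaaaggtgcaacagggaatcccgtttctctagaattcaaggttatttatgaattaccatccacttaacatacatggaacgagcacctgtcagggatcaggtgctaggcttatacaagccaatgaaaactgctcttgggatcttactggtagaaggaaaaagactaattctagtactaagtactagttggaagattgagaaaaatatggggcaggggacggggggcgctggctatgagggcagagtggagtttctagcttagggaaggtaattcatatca
The ISRE core begins 18 bases after the start of Eif2ak2 and the GAS core 178 bases before it. RefSeq gives 4 windows for Gm26637, all within 8 bases of each other, with 0 cores of either kind. All 4 end before the start of its span in the count table, so that start was not searched.

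E130102H24Rik (chr4:101346531-101356735, minus strand) is a lincRNA of 3 exons that holds the miRNA gene Mir101a, with which it shares 9.04% of its exon bases. It had 211 and 178 counts in the IFNα samples (13.1 and 10.1 CPM), against 74 and 85 in the controls (4.26 and 5.01 CPM). The groups did not overlap, and the log2 fold change was 1.37 (SE 0.21). The adjusted p of 0.0488 lay just under the threshold, and without IFNα replicate 1 it was 0.19 with a log2 fold change of 1.18. Ak4, the nearest coding gene, which encodes a mitochondrial adenylate kinase, lies 62542 bases away and had 5.96 and 6.22 CPM with IFNα and 3.34 and 2.71 CPM without (log2 fold change 1.05, adjusted p 0.16). On the other side Jak1, which encodes a kinase of the interferon receptor, lies 81249 bases away and was not called (log2 fold change 0.25, adjusted p 0.60). The lincRNA 0610043K17Rik overlaps the span of E130102H24Rik by 2953 bases on the opposite strand. It had 42 and 38 counts with IFNα and 16 and 14 without (log2 fold change 1.48, adjusted p 0.17), and was named after its values were seen. The RefSeq start window of E130102H24Rik is printed as that of the called RNA farthest from a coding gene, and holds neither core. It lies inside the counted span and does not reach the start of that span, which was not searched.
E130102H24Rik, chr4:101356199-101356498, minus strand: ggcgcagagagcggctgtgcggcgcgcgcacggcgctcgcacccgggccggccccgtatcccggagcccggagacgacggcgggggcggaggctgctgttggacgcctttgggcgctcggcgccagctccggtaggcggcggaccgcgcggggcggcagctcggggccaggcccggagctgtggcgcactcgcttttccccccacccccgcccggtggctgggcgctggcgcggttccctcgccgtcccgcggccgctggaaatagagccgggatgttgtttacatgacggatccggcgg

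**Figure D2:**
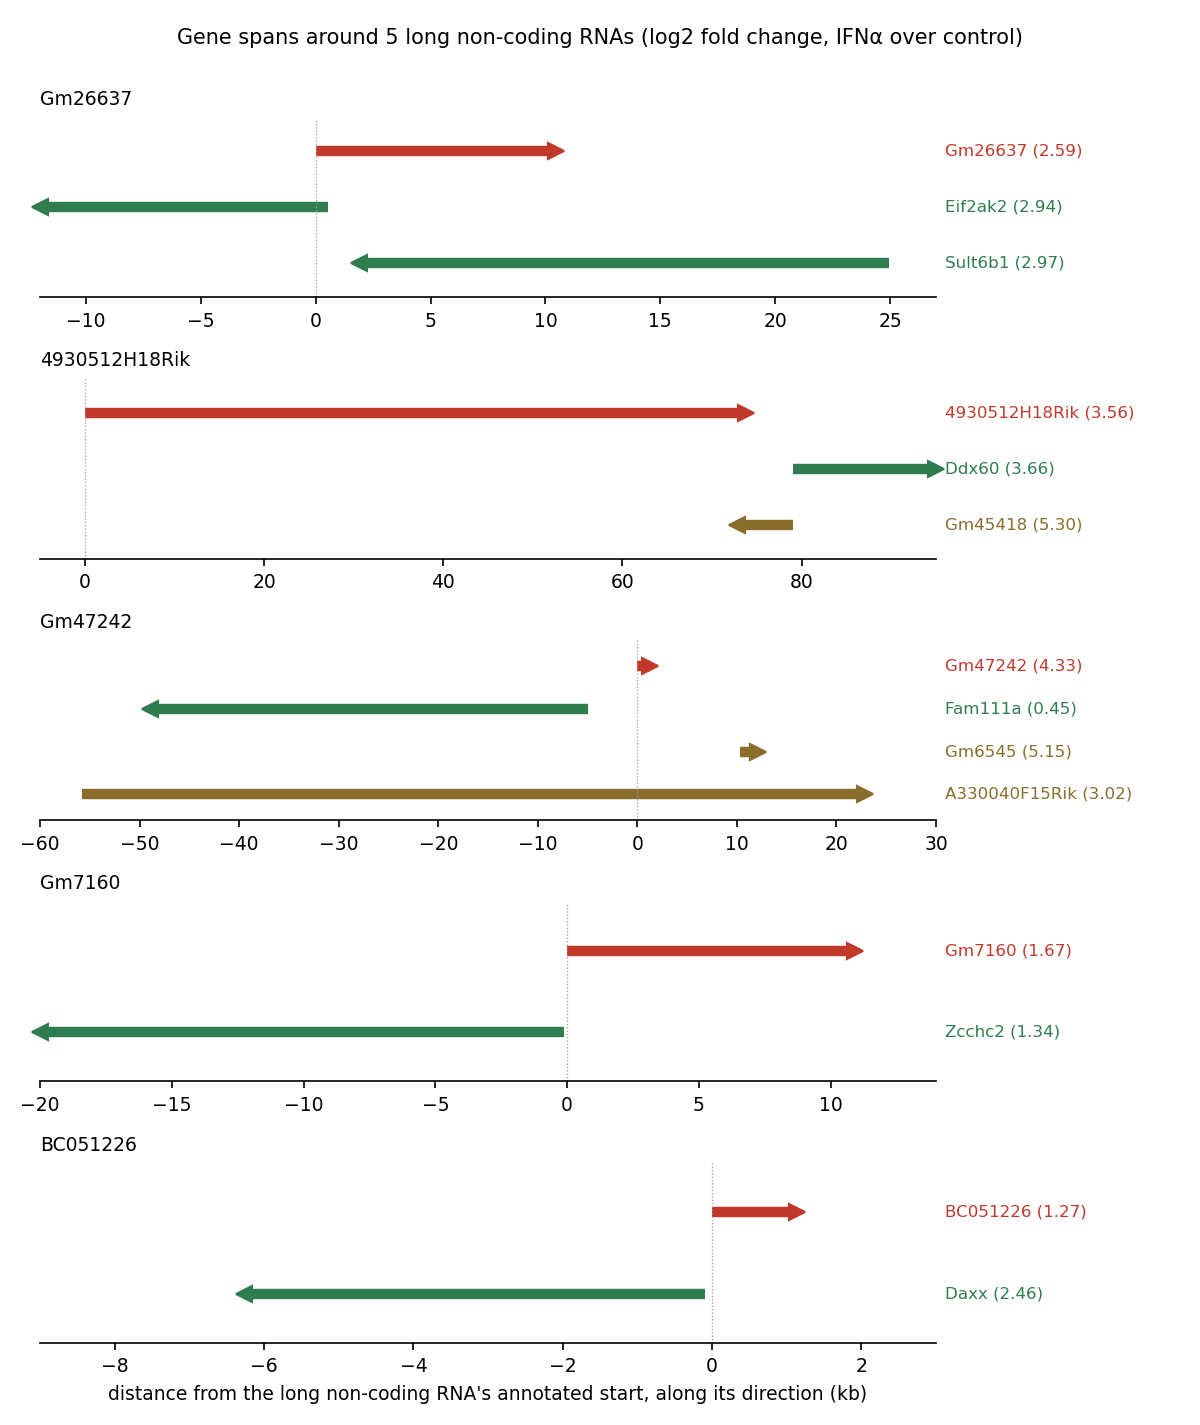
Each panel draws gene spans against the distance in kb from the start of 1 long non-coding RNA (red), along its direction, with coding genes in green, other genes in brown, and the log2 fold change of IFNα over control in brackets. Arrowheads give direction and reach slightly past the span, and spans are cut at the panel edge. Palld is not drawn, and Gm26637, Gm7160 and BC051226 start beside the start of a coding gene that was called higher.

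Gm45552 was the sole long non-coding RNA past the adjusted p threshold in the other direction. It is annotated as antisense and had 244 and 272 counts in the IFNα samples (15.2 and 15.4 CPM), against 524 and 513 in the controls (30.2 and 30.3 CPM). The log2 fold change of -0.94 (SE 0.13, adjusted p 0.0337) is just under 1 in size. Of its exon bases, 20.3% are shared with other genes, and reads there cannot be assigned to a strand. It was named after its values were seen.

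Among the RNAs that were not called, the largest positive changes were those of Gdap10, 1700126G02Rik, Gm7160 and BC051226. Gdap10, inside Nampt on the same strand, had 388 and 450 counts with IFNα and 49 and 186 without (log2 fold change 1.91, SE 0.53, adjusted p 0.25). The wide gap between its controls stands beside that large error, and the log2 fold change was 1.25 without control 1 and 3.15 without control 2. 1700126G02Rik, antisense to Etnk1, had 86 and 80 counts with IFNα and 14 and 36 without (log2 fold change 1.80, adjusted p 0.19, and 1.29 to 2.62 over the 4 fits that each leave out 1 sample).

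Gm7160 starts 124 bases from Zcchc2 on the opposite strand. It had 117 and 166 counts with IFNα, against 33 and 60 without (log2 fold change 1.67, SE 0.33, adjusted p 0.11, and 1.32 to 2.15 over those fits). BC051226 starts 97 bases from Daxx, the gene of a histone chaperone, likewise on the opposite strand, with 390 and 455 counts with IFNα and 231 and 135 without (log2 fold change 1.27, SE 0.27, adjusted p 0.13, and 0.93 to 1.73 over those fits). In all 4 of these RNAs both treated samples lay above both controls, as in 16.2% of all tested genes. They were picked for their large positive changes, which favours such an order, so it adds no support. None passed the adjusted threshold by edgeR's quasi-likelihood test, and all 4 passed by its exact and likelihood ratio tests. The windows of Gm7160, Zcchc2 and Daxx held 0 ISRE and 0 GAS cores.

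The largest negative changes were those of Gm30177, A530021J07Rik, 1700097N02Rik and Lockd. Gm30177, antisense to Nrn1, had 20 and 14 counts with IFNα and 64 and 80 without (log2 fold change -1.996, SE 0.35, adjusted p 0.0704). Lockd, the transcript downstream of the cell cycle inhibitor gene Cdkn1b, had 147 and 146 counts with IFNα and 473 and 312 without (log2 fold change -1.35, SE 0.24, adjusted p 0.0769). Cdkn1b, 3579 bases away on the same strand, was not called (log2 fold change -0.24, adjusted p 0.56). 1700097N02Rik had 24 and 27 counts with IFNα and 92 and 68 without (log2 fold change -1.57, adjusted p 0.0955). A530021J07Rik had 19 and 12 with IFNα and 46 and 61 without (log2 fold change -1.70, adjusted p 0.16). DESeq2 called Gm30177, 1700097N02Rik and Lockd lower, and 1700126G02Rik, Gm7160 and BC051226 higher, beside the 4 called by edgeR.

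**Figure D3:**
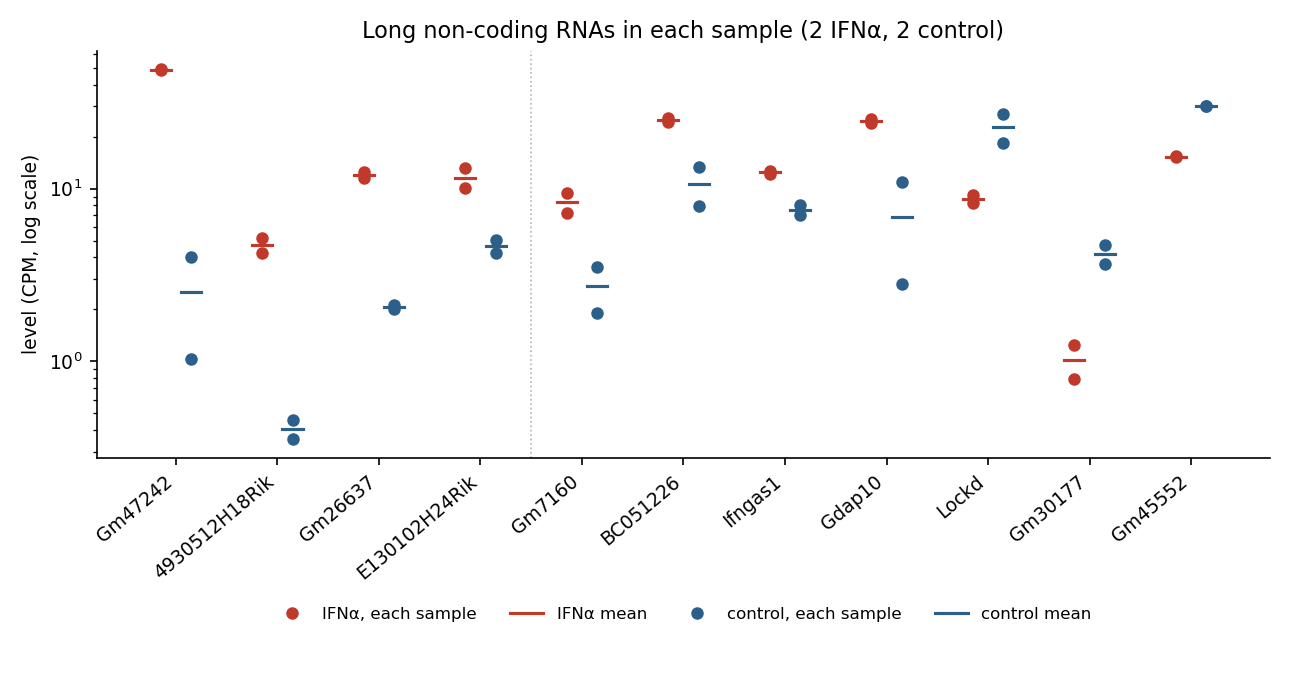
The level of 11 long non-coding RNAs in CPM on a log axis, with each sample as a point and each group's mean as a bar, IFNα in red and control in blue. Left of the dotted line are the 4 that were called higher, and right of it 7 that were not; Lockd, Gm30177 and Gm45552 lie lower in the IFNα samples.

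Position was then read against the coding neighbours. Of the 448, 266 overlapped the span of a protein-coding gene, 227 on the opposite strand and 39 on the same one, 97 more lay within 5 kb, 59 at 5 to 50 kb and 26 farther off. Exon bases were shared with another gene in 234 of them. The nearest coding gene was called higher for 5: Gm26637 (Sult6b1), Gdap10 (Nampt), Gm7160 (Zcchc2), BC051226 (Daxx) and Ifngas1 (Ifng). All 5 had positive log2 fold changes, between 0.77 and 2.59 with a median of 1.67, and an unadjusted p under 0.05, while 1 of them was called. Of all 448, 251 had a positive log2 fold change and 13.4% an unadjusted p under 0.05. Gdap10, Gm7160 and BC051226 are also among the largest uncalled changes given above. The nearest coding gene was called lower for 1, Gm30177, beside Nrn1, the gene of neuritin (log2 fold change -2.09, adjusted p 0.00134). These pairs were listed after their values were seen.

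Ifngas1, known in mouse for its part in Ifng expression, had 204 and 215 counts in IFNα samples, against 122 and 136 in controls (log2 fold change 0.77, SE 0.16, adjusted p 0.13). Ifng, 56143 bases away, had 78.5 and 84.1 CPM with IFNα and 9.90 and 10.6 CPM without (log2 fold change 3.03, SE 0.14). The groups did not overlap for either gene, and the log2 fold change of the coding gene was the larger.

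Across the 402 pairs in which the nearest coding gene was also tested, the log2 fold changes of lncRNA and neighbour had a Pearson r of 0.42 and a Spearman rho of 0.33, and the sign was the same in 247 pairs (61.4%). Both values of a pair come from the same 4 libraries, and some neighbours occur in more than 1 pair, so this is a description across gene pairs. Among 185 pairs whose lncRNA shares no exon base with another gene r was 0.49, and among 216 that share some it was 0.35. Among the 393 pairs with neither gene called it was 0.35. By distance, r was 0.43 over 245 overlapping pairs and 0.44 over 93 more within 5 kb. It was 0.46 over 44 pairs at 5 to 50 kb and 0.46 over 20 farther off, so Pearson r was not higher in closer pairs. Spearman rho over the same groups, from overlapping to farthest, was 0.31, 0.35, 0.41 and 0.21, lowest in the farthest and smallest group. Whether the relation depends on distance was not tested, and pairs of genes that are not neighbours were not compared.

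**Figure D4:**
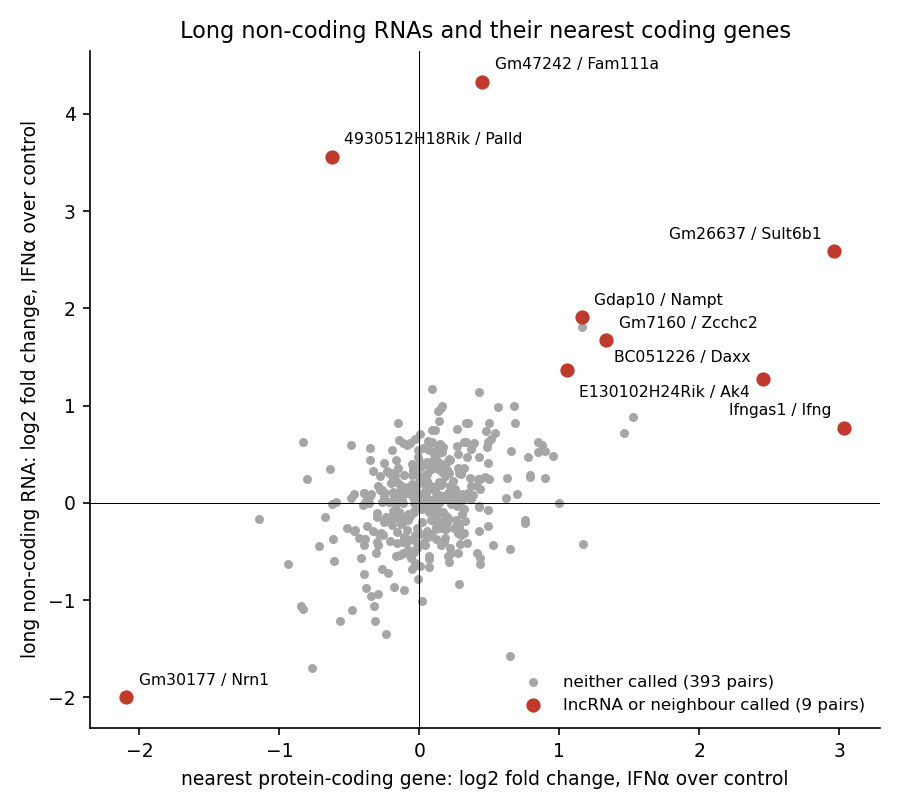
Each point is 1 of 402 pairs, with the log2 fold change of IFNα over control of the nearest protein-coding gene on the horizontal axis and of the long non-coding RNA on the vertical axis. The 9 pairs with a called gene are red; Gm26637 stands high with Sult6b1 and Gm30177 low with Nrn1, while 4930512H18Rik at 3.56 is set against Palld at -0.62.

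RefSeq start windows were matched by symbol for 197 of the 448 (236 windows). On either strand, the ISRE core of 2 GAAA boxes with 2 bases between was found for 4 of the 197 (2.03%), against 3.99% of the 27025 genes with a window. For the GAS core, which reads the same on both strands, the shares were 6.60% (13 of 197) and 9.55%. The 3 matched called lncRNAs held 0 ISRE cores, while the protein-coding genes called higher held one in 48 of 134 (35.8%), against 3.46% of 8993 coding genes tested and not called. Gm47242 had no match, and the windows of the 3 matched called lncRNAs do not cover the starts of their counted spans. Those starts were therefore not searched for any called lncRNA, and the 0 covers the RefSeq windows alone. The members with an ISRE core were AI847159, Gm16675, Rab10os and B130046B21Rik, named after the search, with log2 fold changes of -0.27, 0.42, 0.08 and -0.40 and adjusted p of 0.55 or more. A match of letters is not a bound site, and no match says only that these letters are not in the window.

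By known role, no member of the 4 lncRNA lists was called in either direction. Of all tested genes 1.28% were called higher and 0.139% lower, and at those shares lists this short would mostly hold 0 calls. The same holds for the paraspeckle and RNA-processing lists below. Of the hosts of small nucleolar RNAs, 4 are members, with a median log2 fold change of -0.11. Snhg12 had 57.3 and 53.0 CPM with IFNα and 72.0 and 54.4 CPM without, Snhg6 49.3 and 55.4 against 62.9 and 49.1 CPM, and Epb41l4aos 25.6 and 29.4 against 40.3 and 26.1 CPM. In each of these 3 the groups overlapped. The better known hosts Gas5 and Snhg1 are annotated as processed_transcript and so are not members, and they were not called.

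Of the hosts of miRNAs, 6 are members, with a median log2 fold change of 0.10. Mir142hg, host of a miRNA of blood cells, had 48.7 CPM in both IFNα samples, against 94.0 and 55.4 CPM in controls (log2 fold change -0.58, adjusted p 0.51). Mir17hg, host of the miR-17 cluster, had 62.3 and 60.8 CPM with IFNα and 53.6 and 56.3 CPM without (log2 fold change 0.21, adjusted p 0.56). Mir155hg, host of a miRNA of activated lymphocytes, had 29.1 and 28.5 CPM with IFNα, against 26.6 and 21.9 CPM without (log2 fold change 0.29, adjusted p 0.56). Mir142hg lay lower and the other two higher in both treated samples, each by less than the test's threshold.

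The 11 nuclear and dosage lncRNAs had a median log2 fold change of 0.02. Malat1, given above, was not called (log2 fold change 0.55, SE 0.37, adjusted p 0.61). Neat1 had 374 and 339 CPM with IFNα and 484 and 458 CPM without (log2 fold change -0.36, SE 0.14, adjusted p 0.43), and 2900097C17Rik 204 and 192 CPM with IFNα and 154 and 180 CPM without (log2 fold change 0.29, adjusted p 0.48). Of the proteins these RNAs work with, 0 of 12 paraspeckle genes was called, led by Pspc1 (log2 fold change 0.21, adjusted p 0.57) and Smarca4 (0.19, adjusted p 0.62).

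Among RNA-processing factors, of snoRNP genes 0 of 13 was called (Nhp2 -0.33 and Nop10 -0.27, the smallest p), of nonsense-mediated decay factors 0 of 15 (Smg1 0.90, adjusted p 0.48), and of nuclear exosome genes 0 of 16 tested (Zcchc8 -0.24 and Exosc5 -0.29). Smg1 is a further gene with a low first control, at 772 and 732 CPM with IFNα and 241 and 601 CPM without.

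Of immune lncRNAs 3 are members. AW112010 had 274 and 299 CPM with IFNα and 323 and 240 CPM without (log2 fold change 0.07, SE 0.19, adjusted p 0.90), so it was not shown to change, and its sign turned under some settings. Gm26740 had 36.2 and 38.9 CPM with IFNα and 16.6 and 50.7 CPM without (log2 fold change 0.22, adjusted p 0.86). Ifngas1 is described above.

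The controls differed from each other more than the IFNα samples did, and the gap was wider over the lncRNAs than over all tested genes. The median size of the log2 ratio of sample 2 to sample 1 was 0.17 in the IFNα group and 0.46 in the control group over the 448, and 0.11 and 0.31 over all tested genes. At mean levels of 2 to 20 CPM the control value was 0.47 over 400 of the lncRNAs and 0.27 over 3008 protein-coding genes. Control 2 lay above control 1 in 305 of the 448 (68.1%), against 55.9% of all tested genes. More than 2-fold gaps were counted in 3 of the 448 between the IFNα samples and in 71 between the controls. Among sense_intronic members the median size was 0.22 in the IFNα group and 0.69 in the control group. Over all genes the log2 ratio of control 2 to control 1 had a median of -0.31 in the shortest and 0.43 in the longest of 5 groups by gene length, while the IFNα samples gave 0.06 and -0.06.

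The calls changed with the samples used. Without control 2, 63 of the 448 were called higher (14.1%, against 6.33% of all tested genes) and 14 lower (3.13%, against 1.71%). Without control 1 the counts were 9 higher (2.01%, against 2.03%) and 10 lower (2.23%, against 0.673%). Without IFNα replicate 1 there were 6 higher (1.34%, against 1.51%) and 2 lower (0.446%, against 0.166%), and without IFNα replicate 2 there were 7 higher (1.56%, against 1.49%) and 1 lower (0.223%, against 0.16%). Malat1 had a log2 fold change of 1.20 without control 2 and 0.10 without control 1. For the 4 called lncRNAs the log2 fold change stayed above 1 in the 4 fits that each leave out 1 sample. It was 2.52 to 2.66 for Gm26637, 3.68 to 5.57 for Gm47242, 3.36 to 3.79 for 4930512H18Rik and 1.18 to 1.54 for E130102H24Rik. A fit that leaves 1 sample in a group takes its spread from the other group alone, so its calls cannot check those made on all samples.

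**Figure D5:**
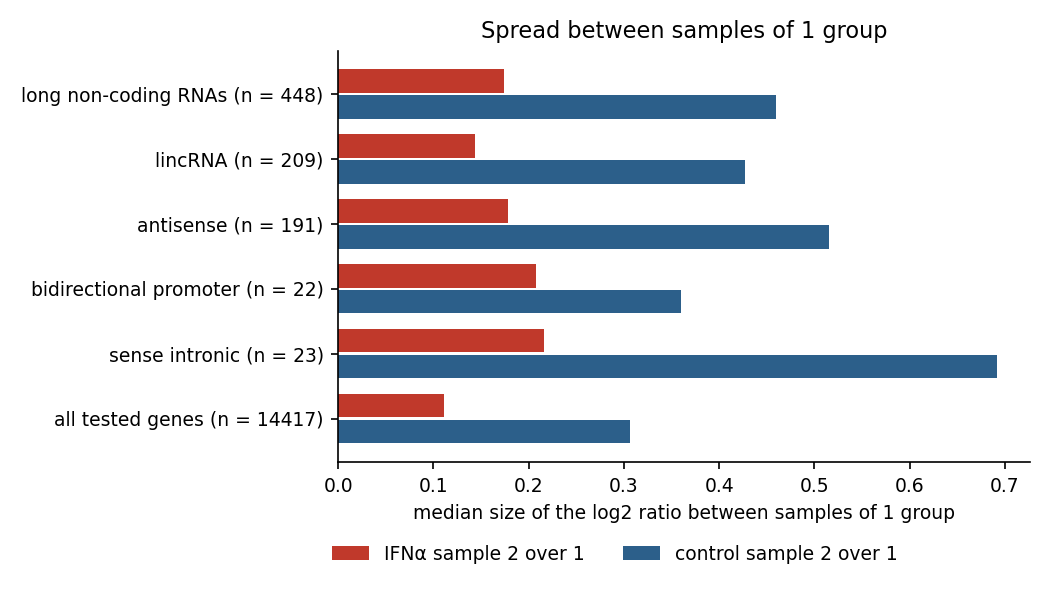
Bars give the median size of the log2 ratio of sample 2 to sample 1 within the IFNα group (red) and within the control group (blue), for the 448 long non-coding RNAs, their 4 larger biotypes and all tested genes. The control bars are longer in every row, from 0.31 for all tested genes to 0.69 for sense_intronic RNAs.

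At the level threshold, the RNAs just inside were 3300005D01Rik (2.001 CPM), Gm20511 (2.01 CPM) and F530104D19Rik (2.02 CPM). Their counts were 17 and 26 with IFNα and 47 and 47 without, 49 and 25 with and 15 and 46 without, and 48 and 41 with and 6 and 41 without. Just outside were Gm28512 (1.97 CPM), Gm33460 (1.99 CPM) and Gm27162 (1.99 CPM), with 31 and 39, 42 and 36, and 24 and 35 counts with IFNα, against 19 and 45, 31 and 26, and 33 and 44 without.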

How the data were processed

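RNA-seq libraries were made with a NEBNext Ultra kit from 4 samples and sequenced on an Illumina HiSeq. The authors mapped reads with Hisat2 and counted them per gene with featureCounts of Subread, per their notes, and deposited raw counts; no source used here states the strand setting. The notes name mm9, but 53585 of 54532 gene spans equal GENCODE release 21 on GRCm38, so coordinates here are GRCm38. Groups came from the treatment labels. Counts were tested in R 4.3.3 with edgeR 4.0.16 (filterByExpr, at least 10 counts; TMM; glmQLFit, robust; glmQLFTest; common dispersion 0.0243; 2 residual degrees of freedom) and tested on simulated data. Alternatives used limma 3.58.1, DESeq2 1.42.0, other scalings, filters and samples. At 16096121 to 17676062 counts per sample a floor of 3 counts applies; intervals cover counting error only. A gene's neighbour is the protein-coding row with the smallest gap (longer overlap first). Members, lists and tests were chosen with earlier results of these data known. Named are all called members, the 10 most abundant, the 3 most abundant of each lncRNA list, the 4 largest uncalled changes each way, 3 rows each side of the level threshold, neighbours of called members, and for each coding list the 2 smallest p; others are marked. Some results that this rule would name are not reported here.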

Additional observations from a re-analysis of the deposited data

How the results depend on the processing

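The 4 calls were made again under most alternatives. Among the fits with all 4 samples, Gm26637 was called in every one, and 4930512H18Rik in every one that held it. Gm47242 lost its call with no filter on low counts (adjusted p 0.0825). E130102H24Rik lost it with a filter at a mean CPM of 5, under limma-voom, under total count or upper-quartile scaling, and without IFNα replicate 1. The count of long non-coding RNAs called higher was 4, and 7 with DESeq2, 8 with the exact or likelihood ratio test, 2 with the filter at 5 CPM, 9 with processed_transcript and TEC rows added and 2 among those overlapping no coding gene. The count called lower was 0, and 3 with DESeq2, 8 with the exact or likelihood ratio test, 6 with no filter on low counts, and 1 with a gene length offset, with upper-quartile scaling, without the fold threshold or from a mean CPM of 1. Leaving out each sample gave 6 to 63 called higher and 1 to 14 called lower. The causes were not tested.

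The deviations of same-numbered samples had a correlation of -0.306 over 10105 genes, which does not settle whether the samples were paired. With the replicate block 8 were called higher and 2 lower, among them Gdap10 (adjusted p 0.0240), 1700126G02Rik (0.0363), Gm7160 (0.00752) and BC051226 (0.00957); with the crossed pairing, added after the data were seen, 13 and 9. The median log2 fold change kept within the spread between samples throughout (-0.09 to 0.18 leaving out each sample).

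Among uncalled RNAs the sign turned for AW112010 with upper-quartile scaling (-0.0025), for Snhg6 with the length offset (0.10) and when a sample was left out for Gm42047 (-0.39 to 0.13), AW112010 (-0.15 to 0.33), 1700020I14Rik (-0.16 to 0.46), Snhg12 (-0.36 to 0.098), Snhg6 (-0.24 to 0.17), Epb41l4aos (-0.53 to 0.16), Gm26740 (-0.35 to 1.20) and Gm20511 (-0.26 to 1.37). Over 34 named RNAs, 480 fits kept direction and side of the threshold, 76 gained a call, 6 lost one and 13 turned sign. Counts of 6 to 92 stand behind the values of 4930512H18Rik.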

Other observations

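Transcripts outside the 448 but of like kind were also called. Of 546 long non-coding rows tested below 2 CPM, Gm45418, beside Ddx60 and described above, was called higher, and Gm42921 was called lower, with 5 and 3 counts in the IFNα samples and 49 and 48 in the controls (log2 fold change -3.48, adjusted p 0.0245). The nearest coding gene of Gm42921 was not tested.

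Of 266 processed_transcript and TEC rows at 2 CPM or more, 5 were called higher and 0 lower. Gm20559 was by far the most abundant, with 5654 and 6094 counts with IFNα and 1100 and 1285 without (log2 fold change 2.37, SE 0.14, adjusted p 0.00107), and Gm43196 had 146 and 164 with IFNα and 32 and 46 without (log2 fold change 2.06, adjusted p 0.0204). Their nearest coding gene on the same strand, Samd9l, an antiviral gene 26129 and 44402 bases away, had a log2 fold change of 2.25. A930037H05Rik, opposite Rnf213, had 335 and 281 counts with IFNα and 23 and 61 without (log2 fold change 2.95, adjusted p 0.0344). AC153498.1, on the strand of Ifng and sharing 12.3% of its exon bases with it, had 63 and 82 counts with IFNα and 11 and 6 without (log2 fold change 3.14, adjusted p 0.0236). A330040F15Rik is given in the report. All were named after their values were seen.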
